A study of Mus musculus with 5 samples.

Results

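Klk6, Hopx, Anxa5, S100b and Spock3 are 5 genes that mark MOL2, a class of mature oligodendrocytes (MOL), and they are 5 of the 11733 genes in the deposited single-cell matrix of the mouse corpus callosum. They were taken by name, and their level and their detection in the same cell were followed over the 12 cluster labels of the study and over both of its corpus callosum libraries. The cells came from mice at day 60 after birth of a line with Emx1::Cre, Sox10::Cre and the reporter LoxP-GFP-STOP-TdTom on a mixed CBA and C57BL/6 background. Emx1 is a gene of the dorsal forebrain and Sox10 one of the oligodendrocyte (OL) lineage, and the study took OL lineage cells with TdTom as dorsally derived and those with GFP as ventrally derived. Tissue of 2 mice was pooled and sorted by fluorescence into TdTom+ and GFP+ cells, and each sort gave 1 library. With 1 library each, a difference of origin and one of sorting or library preparation cannot be told apart, and no p-value is given.

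The TdTom+ library held 1901 cells and 7129294 unique molecular identifiers (UMIs, 1 for each captured RNA molecule), and the GFP+ library held 952 cells and 3584940 UMIs. Their median depths were 3340 and 3307 UMIs per cell, and 1 cell barcode occurred in both libraries. Levels are counts per 1000000 UMIs (CPM) of the summed cells, with an exact Poisson interval at 95%. Shares of cells were counted after each cell was thinned at random to 2400 UMIs, which kept 1751 TdTom+ and 878 GFP+ cells and left out 150 and 74 shallower ones, and have exact binomial (Clopper-Pearson) intervals. All intervals cover counting error only and not the variation between mice.

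Oligodendrocyte precursor cells (OPCs) pass through committed precursor and newly formed stages (COP/NFOL) and myelin-forming stages (MFOL) to mature oligodendrocytes that maintain myelin. The mature cells form several classes, among them MOL1, MOL2 and MOL5/6, and MOL5/6 carries Ptgds, the gene of a prostaglandin D synthase. Klk6 encodes a secreted serine protease that can cleave myelin proteins, and Spock3 encodes testican-3, a secreted proteoglycan of the extracellular matrix. Anxa5 encodes annexin A5, which binds phosphatidylserine in the presence of calcium, S100b encodes a calcium-binding protein that astrocytes also make, and Hopx encodes a small homeodomain protein that does not bind DNA by itself.

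The 5 genes lie on different chromosomes in GRCm38. Klk6 spans chr7:43824499-43832030 on the plus strand, Hopx chr5:77086988-77115121 on the minus strand, Anxa5 chr3:36448923-36475894 on the minus strand, S100b chr10:76253853-76261159 on the plus strand and Spock3 chr8:62951009-63357103 on the plus strand. The study located MOL2 in tissue by in situ sequencing with 5 designed target sequences of 40 bases for each of Klk6, Hopx and Anxa5. Of these targets 3 in Klk6, 2 in Anxa5 and 0 in Hopx lay wholly in coding sequence, and 4 of the Hopx targets lay in its 3′ UTR. The coding targets are shown because they are the RNA stretches by which the same markers were read in situ, whereas the droplet libraries read the 3′ end of each RNA. Capitals mark the bases after an exon junction, and the coordinates include the intron where a target crosses one.
Klk6 target 1 (exons 3 and 4, chr7:43826103-43826823, plus strand): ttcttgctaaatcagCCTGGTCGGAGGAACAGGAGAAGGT
Klk6 target 2 (exon 6, chr7:43829218-43829257, plus strand): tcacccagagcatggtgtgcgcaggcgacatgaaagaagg
Klk6 target 3 (exon 7, chr7:43831582-43831621, plus strand): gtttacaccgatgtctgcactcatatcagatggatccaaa
Anxa5 target 3 (exons 8 and 9, chr3:36453552-36457019, minus strand): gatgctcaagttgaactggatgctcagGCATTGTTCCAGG
Anxa5 target 4 (exon 12, chr3:36450383-36450422, minus strand): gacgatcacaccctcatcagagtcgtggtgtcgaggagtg

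The labels were made by the authors from clusters of these same cells, so a marker's pattern over them is a description and not a test. Of the 5 genes 4 had their highest CPM in one of the 4 labels that name MOL2 (MOL2/MFOL, MOL2a, MOL2b and MOL2/4, 1019 cells), as did 25.3% of the 3141 genes that averaged 50 CPM or more over the labels. The MOL2 labels held 35.7% of the cells and 40.2% of all UMIs but 85.1% of the Klk6 UMIs, 87.6% of those of Hopx, 75.1% of those of Anxa5, 81.7% of those of S100b and 65.5% of those of Spock3. MOL1 (161 cells), a mature class outside the MOL2 labels, also carried all 5 genes, with Klk6 within the range of the MOL2 labels and the other 4 below it.

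Klk6, the protease, stood apart in MOL2/4, where it reached 1541 CPM (1422 to 1668), with 712 in the TdTom+ and 2235 in the GFP+ cells. MOL1 followed with 401 CPM (300.2 and 633 in the TdTom+ and GFP+ libraries), MOL2/MFOL with 373 (273 and 645), MOL2a with 294 (230.3 and 444) and MOL2b with 287 (179 and 447). In MOL2/MFOL 1 GFP+ cell held 59 of the 179 Klk6 UMIs, and the levels without the top cell of each library were 246 and 452 CPM. The intervals of MOL1 and MOL2/MFOL overlapped, as did those of MOL2a and MOL2b. Below these 5 labels Klk6 fell to 22.7 CPM in MFOL2 and to between 6.06 and 8.37 CPM in the labels of MOL5/6 (MOL4-5/6, MOL6a and MOL6b). OPCs held 0 Klk6 UMIs in 83 cells, and 0 of the 71 thinned OPCs had one, which at 3 counts allows a share of cells with a Klk6 UMI of up to 4.23%, or 5.06% by the exact interval.

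Hopx, the homeodomain protein, was highest in MOL2b (237 CPM, with 221 in TdTom+ and 261 in GFP+ cells) and MOL2a (232 CPM, with 219 and 264), whose intervals overlapped. It had 189.5 CPM in MOL2/4, 146 in MOL2/MFOL, 105 in MOL1 and 58.9 in MFOL2, and between 4.04 and 17.7 CPM in the MOL5/6 labels. The interval of MOL2/4 also overlapped those of MOL2b and MOL2a, so that Hopx did not stand apart in MOL2/4 as Klk6 did. In COP/NFOL no Hopx UMI was found in 19 cells.

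Anxa5, the annexin, varied least among the MOL2 labels, from 108 CPM in MOL2b (85.1 in TdTom+ and 142 in GFP+ cells) to 160.3 in MOL2/MFOL (138 and 219.7). The intervals of neighbours in this order overlapped down to MOL1 at 103 CPM. The MOL5/6 labels had 21.6 to 28.8 CPM, and OPCs had 3.77 CPM from 1 UMI.

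S100b was the exception to the MOL2 pattern, since it was highest in the 19 COP/NFOL cells (2155 CPM, 1918 to 2414) and reached 919 CPM in OPCs. Among mature cells it was highest in MOL2a (1925 CPM, with 1778 in TdTom+ and 2272 in GFP+ cells) and MOL2b (1681 CPM, with 1298 and 2251). The interval of MOL2a (1840 to 2014 CPM) overlapped that of COP/NFOL. MOL2/MFOL and MOL2/4 shared a level of 941 and 940.2 CPM, and MOL1 had 821. It dropped to 57.3 CPM in MFOL1 and to between 51.2 and 67.1 CPM in the MOL5/6 labels, so S100b was high in the earliest stages and in MOL1 and MOL2, and low in MFOL1 and MOL5/6.

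Spock3, the testican, was highest in MOL2/4 (676 CPM, with 652 in TdTom+ and 696 in GFP+ cells) and lay between 317 and 355 CPM in the other MOL2 labels, whose intervals overlapped. MOL1 had 300.6 CPM and MFOL2 had 227. Unlike the other 4 genes it kept 129.9 to 158 CPM in the MOL5/6 labels, where its level was 2.60-fold below that of the MOL2 labels. The corresponding ratios were 58.7 for Klk6, 25.6 for S100b and 5.22 for Anxa5.

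**Figure D1:**
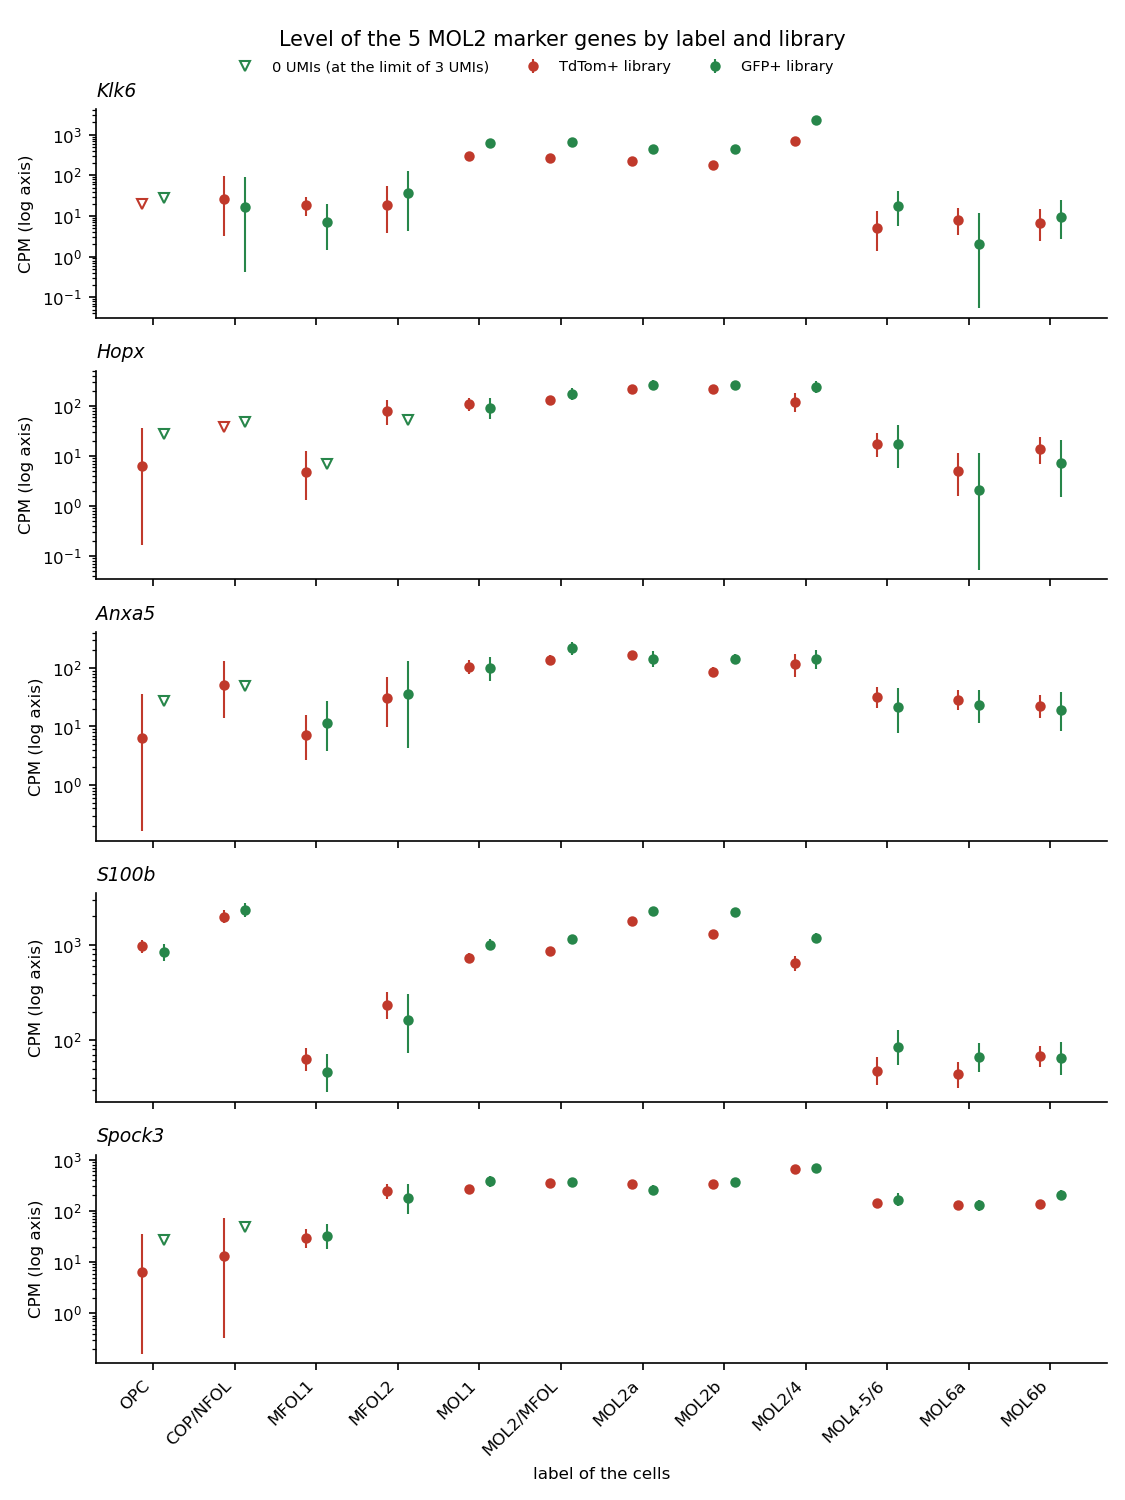
CPM of each gene (log axis) over the 12 labels in the TdTom+ (red) and GFP+ (green) libraries, with points for the level, bars for the exact 95% Poisson interval and open triangles at the level of 3 UMIs where no UMI was found. Klk6, Hopx and Anxa5 rise together in MOL1 and the MOL2 labels, S100b is also high in OPC and COP/NFOL, and Spock3 stays above 100 CPM in the MOL5/6 labels.

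Detection in single cells separated the MOL2 from the MOL5/6 labels, although its order over labels was not that of the levels. After thinning, Klk6 was found in 33.0% of the cells with MOL2 labels (24.5% of TdTom+ and 48.6% of GFP+ cells) and in 2.03% of those with MOL5/6 labels, a class that should lack it. Without thinning the MOL2 shares were 29.9% and 57.0%, at median depths of 3884 and 3982 UMIs, against 2.19% in the MOL5/6 labels at a median of 2976 UMIs. Hopx was found in 31.6% and 34.1% of TdTom+ and GFP+ cells with MOL2 labels, Anxa5 in 21.8% and 22.5%, S100b in 64.8% and 75.1%, and Spock3 in 55.6% and 52.6%. In the MOL5/6 labels the same shares were 3.20% and 1.49% for Hopx, 5.47% and 5.65% for Anxa5, 11.7% and 14.0% for S100b, and 27.5% and 28.6% for Spock3. No gene of the 5 was thus detected in every MOL2 cell at this depth, and Spock3 was the least particular to them.

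The cells in which a marker was found were mostly, but not all, MOL2. Of 388 Klk6+ cells 83.5% had a MOL2 label, of 383 Hopx+ cells 83.3%, of 307 Anxa5+ cells 70.7%, of 984 S100b+ cells 68.4% and of 956 Spock3+ cells 56.1%. Astrocytes also make S100b, so markers of other cells were counted beside it. Of 9 astrocyte markers 8 were in the matrix with 2795 UMIs, at 136 to 1834 CPM over the labels (highest in OPC) and 185 to 420 CPM over the MOL2 labels, and the libraries had 260.2 and 262 CPM. The defining genes Gfap, Aqp4 and Gja1 had 90, 17 and 23 UMIs. In the 38 cells with MOL2 labels and at least 3 astrocyte markers S100b had 1192 CPM. In the other 981 cells with these labels it had 1504 CPM. Klk6 (191 against 436 CPM) and Hopx (155 against 212 CPM) were lower in the 38 cells too. So were Anxa5 (59.6 against 137 CPM) and Spock3 (274 against 378 CPM). Whether astrocyte RNA contributed to the S100b level was not tested.

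Counting the markers per cell, 1046 of the 2629 thinned cells had none of the 5 genes, 780 had 1, 362 had 2, 279 had 3, 133 had 4 and 29 had all 5. At least 2 were found in 30.5% of the cells (28.8 to 32.3). By label this share was 84.9% in MOL2/4, 66.0% in MOL2b, 65.8% in MOL2a and 53.3% in MOL2/MFOL. It was 38.2% in MOL1, 17.9% in MFOL2 and between 5.65% and 9.65% in the MOL5/6 labels, and no COP/NFOL cell of 18 had 2, although 31.6% of these deeply read cells had 2 or more before thinning. Of the 441 cells with at least 3 of the genes, 397 had a MOL2 label, 34 were MOL1 and 4 had a MOL5/6 label.

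**Figure D2:**
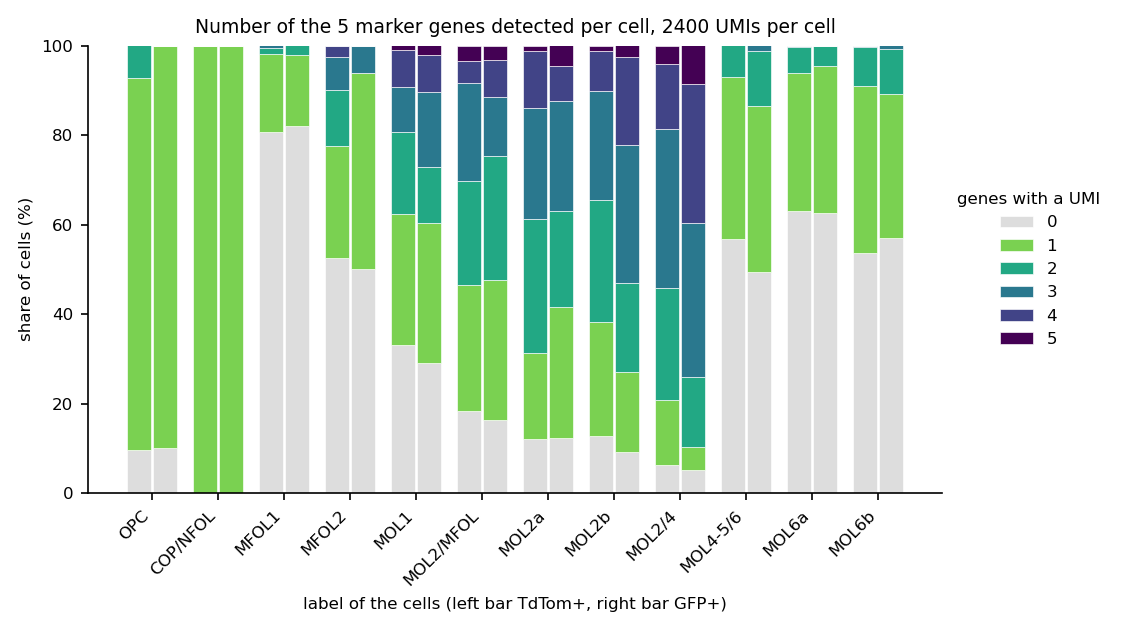
Share of cells (%) with 0 to 5 of the genes detected at 2400 UMIs per cell, as stacked bars for each label, the left bar for TdTom+ and the right bar for GFP+ cells. Cells with 3 or more genes are concentrated in MOL2/4, MOL2a, MOL2b, MOL2/MFOL and MOL1, cells with none are the most frequent kind in the MFOL and MOL5/6 labels, and cells with 1 gene are so in OPC and COP/NFOL.

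Next the number of cells with both genes of a pair was set against the number that their separate shares give. Over all cells the 10 pairs were found together in more cells than the product of the shares gives, by 1.33-fold (S100b with Spock3) to 2.71-fold (Klk6 with Hopx, 153 cells against 56.5). Because the genes share labels, the product was then taken within each label and library. All 10 ratios stayed above 1, and 6 were at least 1.2. Klk6 with S100b had 350 cells against 254 (1.38, 1.24 to 1.53), Klk6 with Hopx had a ratio of 1.34 (1.14 to 1.57) and Klk6 with Anxa5 one of 1.32 (1.08 to 1.60). Hopx with S100b had 1.25 (1.12 to 1.40), Hopx with Anxa5 1.24 (1.00 to 1.52) and Anxa5 with S100b 1.23 (1.07 to 1.41). The 4 pairs with Spock3 lay lower, at 1.06 with Klk6, 1.17 with Hopx (1.03 to 1.34), 1.07 with Anxa5 and 1.08 with S100b. Which of these 4 intervals lay above 1 changed with the random draw, since a second draw gave 1.12 with Hopx (0.97 to 1.28) and 1.23 with Anxa5 (1.05 to 1.43), and without thinning all 4 did, at ratios of 1.12 to 1.15.

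The same ratio was computed with every one of 3136 genes as the background. A ratio of at least 1.2 was reached with Klk6 by 3.28% of the genes, with Hopx by 2.61%, with Anxa5 by 4.08%, with S100b by 0.159% and with Spock3 by 0.478%, and the median ratio over genes was between 0.997 and 1.00 for each marker. Klk6, Hopx, Anxa5 and S100b each reached it with the 3 others of these 4, and Spock3 with none of the 4 in this draw, but with Anxa5 in the second. By library the 3 pairs of Klk6 with Hopx, Anxa5 and S100b reached it in both, at 1.36, 1.35 and 1.52 in TdTom+ and 1.33, 1.298 and 1.26 in GFP+ cells. Hopx with Anxa5 had 1.15 (0.87 to 1.502) in TdTom+ and 1.38 (0.98 to 1.90) in GFP+ cells, Hopx with S100b 1.302 (1.12 to 1.503) and 1.18 (0.97 to 1.42), and Anxa5 with S100b 1.25 (1.04 to 1.48) and 1.199 (0.95 to 1.499). In the first draw Klk6 ranked first with S100b among the 3136 genes, Hopx had rank 2 and Anxa5 rank 5. The ranks were lower the other way round, with S100b at 13, Hopx at 20 and Anxa5 at 24 for Klk6, Klk6 at 9, S100b at 34 and Anxa5 at 44 for Hopx, and Klk6 at 20, Hopx at 81 and S100b at 96 for Anxa5. Cells within a label are not replicates, so these ratios describe 2 libraries.

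**Figure D3:**
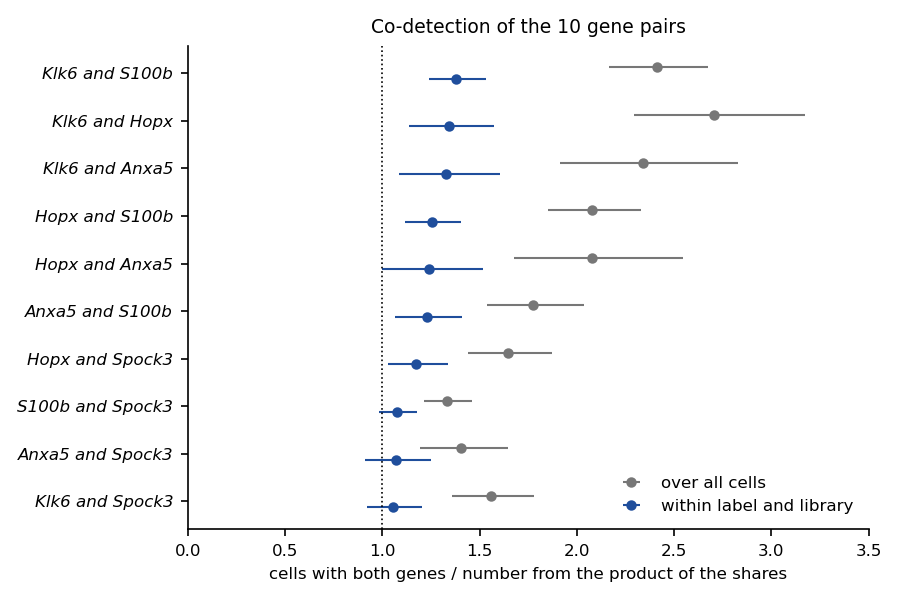
Cells with both genes of a pair divided by the number that the product of their shares gives, over all cells and within label and library, with 95% Poisson intervals and a dotted line at 1. All 10 pairs lie above 1 in both counts, and the pairs with Spock3 lie nearest to 1 within labels.

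By label Klk6 with Hopx had a ratio of 2.41 in MOL1 (14 cells against 5.81, 1.32 to 4.04), 1.54 in MOL2/MFOL, 1.35 in MOL2b, 1.23 in MOL2a and 1.07 in MOL2/4. Klk6 with S100b had the same order at its ends, with 2.27 in MOL1 (33 cells against 14.5) and 1.12 in MOL2/4. For Klk6 with Hopx the intervals of MOL1 and MOL2/4 (0.70 to 1.59) overlapped. For both pairs MOL1 thus held the highest and MOL2/4 the lowest ratio of these 5 labels, but the order differed for other pairs, such as Hopx with Anxa5 at 1.11 in MOL1, 1.26 in MOL2/4 and 1.35 in MOL2b. A ratio cannot exceed the inverse of the larger share, which for Klk6 with S100b was 1.25 in MOL2/4 and 2.57 in MOL1, so the ratios of these labels cannot be compared directly. In the MOL5/6 labels 4 of the 10 pairs were above 1.

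Cells without any marker were also more frequent in the MOL2 labels than independent detection within label and library gives. There were 123 such cells against 55.3, and their number was above the expected in 8 of the 8 combinations of label and library. Cells with at least 3 of the genes numbered 397 against 342, above the expected in 7 of 8. In the MOL5/6 labels 627 cells had none against 619.

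S100b accompanied Klk6 in most cells. Of the Klk6+ cells 90.2% were also S100b+, against 28.3% of the cells without Klk6, and within the MOL2 labels the shares were 95.1% and 55.4%. The reverse did not hold, since S100b alone was found in 279 cells, of which 85 had a MOL2 label and 84 a MOL5/6 label. Spock3 alone was the most frequent combination (386 cells, of which 230 had a MOL5/6 label), and S100b with Spock3 was the most frequent pair without a further marker (145 cells). Klk6, S100b and Spock3 without the others were found in 83 cells (39 TdTom+ and 44 GFP+), and Hopx, S100b and Spock3 in 71 (59 TdTom+ and 12 GFP+). All 5 genes together were found in 29 cells (14 TdTom+ and 15 GFP+), 27 with a MOL2 label and 2 in MOL1.

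The study called a cell MOL2 in tissue when it carried Anxa5 together with Klk6 or Hopx. Applied to the thinned cells, this rule took 152 of 2629 cells (5.78%, 4.92 to 6.74), or 10.3% without thinning, and 142 of the 152 (93.4%, 88.2 to 96.8) had a MOL2 label. Of the rest 9 were MOL1 and 1 had a MOL5/6 label, of 1085 cells there. The rule was met by 20.8% of the MOL2/4 cells, 15.3% of MOL2a, 13.6% of MOL2b and 12.2% of MOL2/MFOL. Without thinning these shares were 24.4%, 30.4%, 25.1% and 22.9%, with MOL2a highest, so at either depth it took a minority of the cells with these labels. Of the 152 cells, 106 carried Klk6, 93 Hopx and 47 both with Anxa5. The study asked in addition for markers of the OL lineage, which were not required here. Among them Sox10, a transcription factor, differed between the libraries, with 1026 CPM in TdTom+ and 645 CPM in GFP+ cells (log2 ratio 0.67, 0.60 to 0.74), and was missing from more of the GFP+ cells, where 76.9% had it.

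Genes outside the 5 differed with the number of markers in a cell. Over the thinned cells of all labels, depth before thinning moved with this number too. Its median went from 3197 UMIs in cells with none to 4339 with 3 and 5022 with all 5. The labels also differ in depth, and the part of depth in the differences below was not tested. Within the MOL2 labels Ptgds was at 4157 CPM in cells with none of the 5 genes, 2611 with 1, 1544 with 2, 549 with 3 and 448 with 4 or 5. In the TdTom+ cells it went from 3803 to 671 CPM and in the GFP+ cells from 5012 to 231 CPM. Il33, an interleukin of the interleukin-1 family, went from 224 to 23.0 CPM over the same steps, and Qdpr, a dihydropteridine reductase, from 2297 to 1147 CPM. Car2, a carbonic anhydrase, moved less, from 4475 to 3456 CPM.

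Apod, the apolipoprotein D gene, which was put with the MOL5/6 genes for this work and not by the study, went the other way. It rose from 1911 CPM in cells with none of the markers through 2142, 2727 and 3435 to 4329 CPM in those with 4 or 5. The TdTom+ cells went from 1753 to 3119 CPM and the GFP+ cells from 2292 to 5507 CPM. Sox10 lay at 881 and 791 CPM at the ends of the scale. Apod was highest in MOL2/4, and the labels contributed unequally to each number of markers, so both genes were also compared within labels between cells with none and with at least 3 markers. Ptgds was lower with 3 or more in MOL1 and the 4 MOL2 labels, with 362 against 14236 CPM in MOL2/4 (69 and 6 cells), 600.5 against 20217 in MOL1 (34 and 50 cells), 558 against 5247 in MOL2b, 802 against 3110 in MOL2/MFOL and 314 against 1528 in MOL2a. Apod was higher with 3 or more in the same 5 labels, with 10145 against 4514 CPM in MOL2/4, 3125 against 1292 in MOL1, 3264 against 2022 in MOL2/MFOL and 2194 against 1505 in MOL2b, and in MOL2a the intervals overlapped (2240.2 against 1898 CPM).

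**Figure D4:**
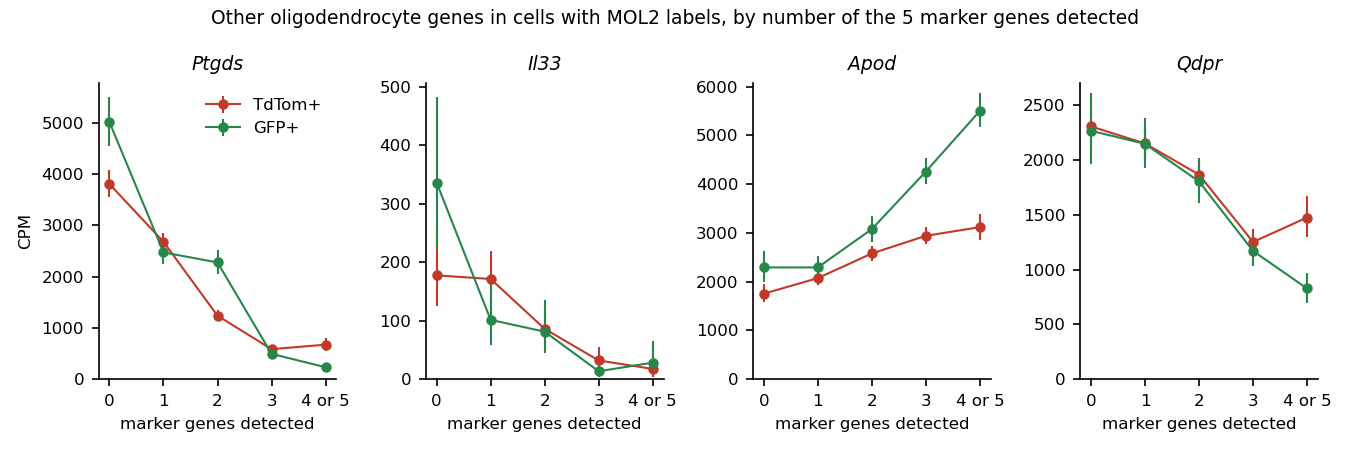
CPM of Ptgds, Il33, Apod and Qdpr in cells with MOL2 labels by the number of the 5 genes detected, for TdTom+ (red) and GFP+ (green) cells, with exact 95% Poisson intervals. Ptgds falls from 3803 and 5012 CPM to 671 and 231 CPM, and Apod rises from 1753 and 2292 CPM to 3119 and 5507 CPM.

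Between the libraries the 5 genes were all lower in TdTom+ than in GFP+ cells, but by very unequal amounts. Over all cells a log2 ratio of CPM (pseudocount 1 CPM) below 0 was found for 46% of the 3141 genes and a ratio below -0.5 for 1.15%. Within the MOL2 labels these shares were 41.8% and 0.923%. Within these labels Klk6 had 253 CPM in TdTom+ and 734 CPM in GFP+ cells (log2 ratio -1.53, -1.68 to -1.40) and S100b had 1257 and 1909 CPM (-0.60, -0.67 to -0.53), and both were below -0.5. Hopx had 190.1 and 245 CPM (-0.36, -0.56 to -0.17), Anxa5 122 and 156 CPM (-0.36, -0.61 to -0.12) and Spock3 363 and 393 CPM (-0.11, -0.26 to 0.03). The median log2 ratio over all genes was 0.03 in these labels.

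Klk6 was lower in TdTom+ cells in each of the 4 MOL2 labels and in MOL1, from -0.94 in MOL2a (-1.29 to -0.60) to -1.65 in MOL2/4 (-1.94 to -1.37). Without the cell with most Klk6 UMIs in each label and library, left out after the values were seen, the ratios ran from -0.87 in MOL2a to -1.75 in MOL2/4, and MOL2/MFOL went from -1.24 to -0.88. S100b was lower in the same 5 labels, from -0.35 in MOL2a to -0.89 in MOL2/4, and in MOL4-5/6 (-0.81, -1.60 to -0.03). In the immature cells its interval spanned 0 in OPCs (974 and 842 CPM, 0.21, -0.17 to 0.60) and COP/NFOL (-0.25, -0.58 to 0.09). Hopx had an interval below 0 in MOL2/4 alone (120 and 247 CPM, -1.03, -1.82 to -0.30). Anxa5 had one in MOL2b (-0.74, -1.15 to -0.33) and MOL2/MFOL (-0.66, -1.14 to -0.19), and in MOL2a it was at 0.20 (-0.32 to 0.75). Spock3 was higher in TdTom+ cells of MOL2a (341 and 261 CPM, 0.38, 0.01 to 0.78), and lower in MOL1 (-0.49, -0.91 to -0.06) and MOL6b (-0.57, -0.99 to -0.16). Of the 20 ratios in the MOL2 labels 18 were below 0, as were 46.9% of the 12275 ratios of all tested genes in these labels. With their whole interval 11 lay below and 1 above 0, against 3.33% and 4.02% of all. Over all labels 30 of 46 ratios were below 0, against 48.2% of 35752. In MFOL2 Hopx had 13 UMIs in TdTom+ and 0 in GFP+ cells, at least 1.47-fold higher when the GFP+ level is set at 3 UMIs.

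**Figure D5:**
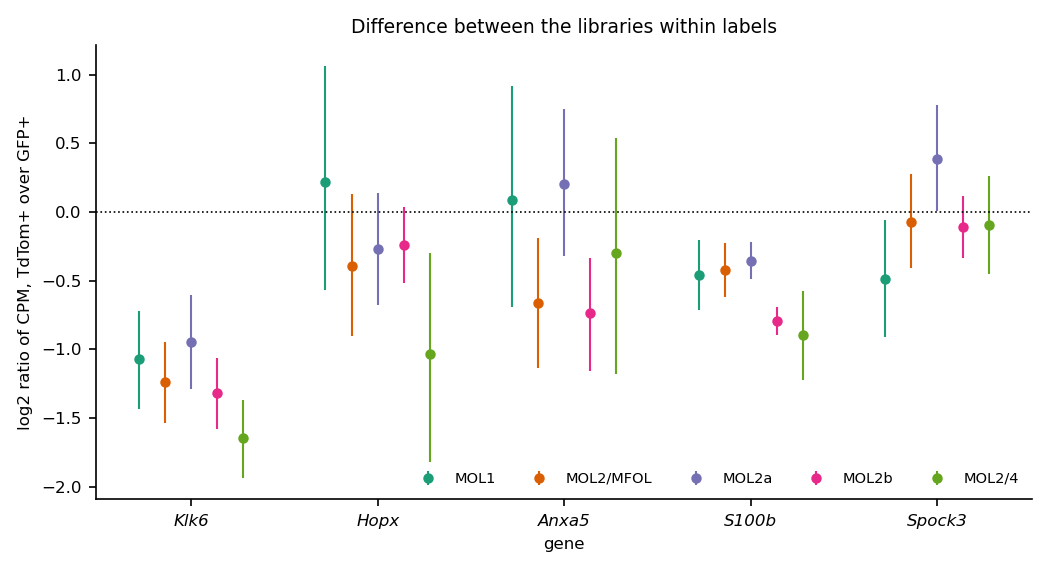
log2 ratio of CPM, TdTom+ over GFP+, for the 5 genes in MOL1 and the 4 MOL2 labels, with 95% intervals conditional on the summed UMIs and a dotted line at 0. Klk6 lies between -1.65 and -0.94 and S100b between -0.89 and -0.35, whereas the other genes have intervals that span 0 in most labels.

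The Klk6 difference was seen in the share of cells and, most in MOL2/4, in the amount per cell. In the MOL2 labels the thinned share of Klk6+ cells was 24.1 percentage points lower in TdTom+ cells (interval of the difference -30.2 to -17.8), and in MOL2/4 it was 47.9% against 86.2%. In MOL2b it was 26.2 points lower (-35.1 to -16.9), whereas the interval spanned 0 in MOL2a (-10.2, -23.9 to 2.84) and MOL2/MFOL (-6.59, -19.9 to 4.92). Among the Klk6+ cells of MOL2/4 the mean was 3.91 thinned UMIs in TdTom+ and 6.46 in GFP+ cells, against 2.88 and 3.88 in MOL2/MFOL, 2.63 and 3.69 in MOL1, 1.79 and 1.96 in MOL2a and 1.71 and 2.01 in MOL2b. Before thinning 13 of 60 TdTom+ and 31 of 63 GFP+ cells of MOL2/4 had at least 5 Klk6 UMIs, and 37 and 12 cells had none. The share of S100b+ cells in the MOL2 labels was 10.3 points lower in TdTom+ cells (-16.0 to -4.29), and those of Hopx, Anxa5 and Spock3 differed by -2.55, -0.72 and 2.97 points with intervals that spanned 0.

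The number of markers found per cell differed in the same direction. It depends on the share of cells with each gene, and the pair ratios given above by library differed in both directions. At least 2 of the genes were found in 29.2% of TdTom+ and 33.3% of GFP+ cells, a difference of -4.07 points (-7.88 to -0.34), and at least 3 in 14.7% and 21.0% (-6.28, -9.51 to -3.18). The first interval spanned 0 when the cells were not thinned (-2.41, -6.17 to 1.29) and when the tenth of cells with most UMIs was left out (-2.63, -6.57 to 1.21). Within the MOL2 labels at least 3 genes were found in 35.9% and 48.6% of the cells (-12.6, -19.0 to -6.15). Independent detection in each library gave 190 of 637 TdTom+ and 149 of 346 GFP+ cells, where 229 and 168 were found. In these labels the rule of Anxa5 with Klk6 or Hopx was met by 12.7% and 17.6% (-4.91, -9.88 to -0.30). By label the difference in the share with at least 3 genes was -20.0 points in MOL2/4 (-36.8 to -1.74) and -18.6 in MOL2b (-27.9 to -8.93), whereas it was 1.93 in MOL2a (-12.2 to 15.2) and 5.77 in MOL2/MFOL (-7.94 to 17.4).

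Among other genes, those most like each marker over the 12 labels were taken by Pearson's r of log2(CPM + 1), with no test, since the points are labels of the same 2 libraries and share their depth. Klk6 was most like Sccpdh (0.97), Anxa5 (0.92) and Fam131b (0.90), and Hopx was most like Slc25a27, a mitochondrial carrier (0.96), Usp31, a ubiquitin peptidase (0.96), and Plin3, a coat protein of lipid droplets (0.94). Anxa5 was most like Csf1, the colony stimulating factor 1 gene (0.95), Cpox, an enzyme of haem synthesis (0.94), and the tetraspanin Tspan5 (0.93). S100b was most like the phosphodiesterase Pde4d (0.93), S100a6 (0.90) and Plekhj1 (0.88), and Spock3 was most like Hapln2, a link protein of the nodal matrix (1.00), Sepp1, selenoprotein P (0.99), and Apod (0.98). The r of Spock3 with S100b was 0.00, the lowest among the 5 genes. Of these 15 choices 6 were shared when the points were the 24 sums of label and library, and 3 when labels under 100 cells were left out, so the lists depend on the small OPC, COP/NFOL and MFOL2 labels.

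The highest co-detection ratios within labels rested on few cells for several markers, such as Tmem100 with Klk6 (5 cells against 2.22) and Nxph1 with Spock3 (2 against 1.24), and Tubb2b, a tubulin, led for Hopx (20 against 9.76). With at least 20 expected cells, a limit set after the values were seen, Mgst3, a microsomal glutathione S-transferase, led for Klk6 (122 cells against 82.3, a ratio of 1.48) and for Anxa5 (79 against 52.2, 1.51). Ddah2, a dimethylarginine hydrolase, led for Hopx (70 against 46.2, 1.52), and Acat2, an acetyltransferase of sterol and lipid metabolism, led for Spock3 (1.23). Mgst3 also followed Klk6 and Hopx in the ranking with S100b (1.25).

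The relatives of the markers were mostly low or not particular to MOL2. Of the kallikreins only Klk6 and Klk8 were in the matrix, and Klk8 had 8 UMIs. Among the annexins Anxa5 alone reached 50 CPM in a label of at least 100 cells. Of the 7 S100 genes 5 did so, and in the MOL2 against the MOL5/6 labels S100a1 had 266 and 257 CPM, S100a13 402 and 278, S100a16 1333 and 859.6, S100a6 184 and 55.7 and S100b 1491 and 58.3. S100a6 resembled S100b further in its high level in COP/NFOL (728 CPM). Sparc, a matrix protein related to the testicans, had 113 CPM in the MOL2 and 21.8 CPM in the MOL5/6 labels and was highest in MOL2/4 (197 CPM), as was Spock3, whereas Spock1 went the other way with 46.5 and 69.5 CPM.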

How the data were processed

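OL lineage cells of P60 corpus callosum were sorted by FACS and made into 3′ libraries with the 10x Genomics v2 chemistry, 1 for TdTom+ and 1 for GFP+ cells. The 3 spinal cord samples of the series were not analysed here. Per the labels, reads were processed with Cell Ranger 2.1.1 on mm10, and the study names STAR as the aligner. Which gene annotation was used is not given in the sources used here. Cells were kept by the authors within limits on genes and mitochondrial reads, then clustered and named. The deposited value is a signal, the UMI count of a gene divided by the whole UMI total of the cell, and not the raw count that the plan for this work had assumed. Multiplying by the total gave whole numbers within 0.01 for 100% of values, and these UMI counts were used. Cell labels came from the deposited annotation, and its 38 other columns were left unused. No doublet removal was added, and Scrublet (in scanpy 1.11.5) marked 13 cells (0.456%).

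For detection, UMIs of each cell were drawn at random without replacement down to 2400, which is the rounded 10th percentile of depth (seed 1), and a gene was detected when 1 UMI remained. Expected co-detection is the product of the shares, also summed over label and library. With 1 library per group no test was made. Levels are CPM, ratios between libraries are on the log2(CPM + 1) scale with exact conditional intervals, and differences of shares have Newcombe intervals. The genes named are the 5 markers, the 3 genes most like and most co-detected with each among those of at least 50 CPM, family members with at least 50 CPM in a label of 100 cells, and class markers, of which some are not reported here. The markers and lists were chosen with earlier results of these data known. Alternatives were other thinning, detection at 2 UMIs, cell sets, filters, pseudocounts and scalings, including TMM in edgeR 4.0.16. Code for intervals and ratios was tested on simulated data (Python 3.11.15, scipy 1.17.1).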

Additional observations from a re-analysis of the deposited data

How the results depend on the processing

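The share of cells with at least 2 markers (30.5%) was 35.2% without thinning, 22.0% at 1500 UMIs, 13.0% when 2 UMIs were asked for and 28.2% without the tenth of cells with most UMIs. The share meeting the rule of Anxa5 with Klk6 or Hopx (5.78%) was 10.3%, 2.94%, 1.14% and 4.61% in the same order. Of the 15 most alike genes 6 remained with 24 sums, 3 without labels under 100 cells and 5 with a limit of 200 CPM. The other 45 of 56 recomputed values moved by less than their limits, among them the 4 genes highest in a MOL2 label and the 10 pairs above 1. All 90 recomputed ratios within labels lay above 1, and 9 moved, upward, at 2 UMIs. The difference between libraries in cells with at least 2 markers stayed negative (-7.83 to -2.41 points). Of 46 log2 ratios by gene and label 30 were below 0, and 22 to 30 under the alternatives, the lowest without the tenth of cells with most UMIs. Only ratios with at least 10 UMIs were counted, so with fewer cells the total can be below 46. Over all cells the ratio of Klk6 was -1.29 with label shares held equal, that of S100b was -0.54, and with a mean of per-cell CPM S100b was at -0.58 and Anxa5 at -0.08 against -0.30 from summed UMIs. No paired analysis was possible because each group has 1 library, which also bars leaving out a replicate. Depth limits the shares, since a cell without a UMI of a gene may still express it.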

Other observations

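Apod was at 8581 CPM in MOL2/4, 2147 in MOL2a and 2010 in MOL2b, against 1233 CPM in the MOL5/6 labels. It was lower in the TdTom+ than in the GFP+ library (1596 and 2217 CPM over all cells, log2 ratio -0.47, -0.52 to -0.43), as were Klk6 and S100b, whereas Ptgds had 8408 and 8419 CPM (0.00, -0.02 to 0.02). Hapln2 was at 778 CPM in the MOL2 and 298 CPM in the MOL5/6 labels, Sepp1 at 2107 and 672 CPM, and Sccpdh at 335 and 134 CPM. These genes were named by their likeness to a marker over the labels, so the higher level in the MOL2 labels is a description.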
